A study of Mus musculus with 29 samples.

Results

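The donor cell type of a cloning experiment was set against the embryos made from it: 12 single mouse cumulus cells and 9 control embryos produced by nuclear transfer, 21 of the 29 libraries of the study. Members were all libraries that the labels call cumulus cell or control nuclear transfer embryo, and hydroxyurea-treated embryos were not used here. All animals were of the BDF1 strain, and no age is given. Control embryos were made by injecting a cumulus cell nucleus into an enucleated egg, activated for 6 h with 10 mM strontium in the presence of cytochalasin B and EGTA, and cultured without hydroxyurea in medium that was renewed at 24 h. Each was collected whole at the 2-cell stage, 28 h after activation, so an embryo library holds 2 cells and a cumulus library holds 1. The labels name no transgene or deletion in either group.

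Cumulus cells are the somatic granulosa-lineage cells that surround the ovulated egg. They import cholesterol, convert it to pregnenolone and progesterone, and after ovulation sit in a matrix that they secreted. A 2-cell embryo, by contrast, still carries much of the store of messenger RNA that the oocyte laid down, while its own genome is only starting transcription. In nuclear transfer the egg supplies that store and the cumulus cell supplies only the nucleus, so the comparison asks how far the transcripts of the donor cell type and of the reconstructed embryo lie apart.

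The labels name no animal or culture behind the 12 cells, which therefore count as 1 sample. No test was run, and differences are given as sizes beside the spread over cells and over embryos. The level of a gene in the cells is its CPM in the summed cells, counts scaled to a common library size, with ERCC spike-in RNAs and the pre-ribosomal transcript Rn45s left out of the library size. A 95% exact Poisson interval on that sum covers counting error only, because the libraries carry no molecular identifiers. The level in embryos is the mean CPM of the 9 embryos with its SD. The log2 ratio is that of the summed cells over the embryo mean with 1 CPM added to both, which understates the difference of low genes.

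Cumulus cell libraries were the shallower, with 152332 to 1535076 gene counts (median 919649) against 1440173 to 2455674 (median 2070347) in embryos. Genes with a count numbered 4053 to 8628 per cell and 13874 to 15131 per embryo. After every library was thinned to 152332 counts the ranges were 4053 to 7759 and 10741 to 11515, which still did not overlap. Gene counts per ERCC count were 0.172 to 1.15 in cells and 8.54 to 15.7 in embryos, and Rn45s held 49.3% to 86.6% of counts outside the ERCC rows in cells and 16.2% to 32.5% in embryos. CPM compares the composition of the RNA, and less of one transcript per cell and more of the others cannot be told apart by it.

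Both cells 2 and 10 stood apart from the other cells. Cell 2 had a median Spearman correlation of 0.244 with the other cells over genes, an Rn45s share of 86.6% and 16.7% mitochondrial counts. Cell 10 had the lowest depth and no mitochondrial count, and 10.7% of its counts came from ribosomal protein genes. The labels' tissue was checked in each by single genes. Cell 2 held Cyp11a1 at 2599 CPM and Hsd3b1 at 101 CPM, and cell 10 held them at 4681 and 4713 CPM. Fdx1, Timp1 and Nr5a1 also had counts in both cells. Other genes high in cumulus cells were low or absent. Spp1 stood at 1305 CPM in cell 2 and 1963 CPM in cell 10, against a median of 22479 CPM over cells. Gja1 stood at 26.5 and 19.7 CPM, against a median of 1203 CPM. Inha, Inhba and Sfrp4 were at 0 in both cells. These genes together do not settle the tissue of either cell. Tcl1, Omt2a and Btg4 were at 0 in both. Other egg genes did have counts in cell 2, with Eif4e1b at 424, Mos at 324, Omt2b at 21.2 and Bmp15 at 15.9 CPM. Of 12 oocyte markers, 8 were at 0 in every cell. Counts of genes are therefore also given without these 2 cells, a choice made after their values were seen.

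The stretches of DNA before the start sites of 6 of the most divergent genes are shown. All of them but that of Hsd3b1 carry the sequence in which the embryo-high genes most often agreed. The embryo-high genes shown are all ones that carry it. Embryo-high genes without it, Bmp15, Omt2b, Oog3 and Wee2, are not shown. The stretches are the 160 bases upstream of the RefSeq start on GRCm38.p6, and no base of them lies in a GENCODE exon. The stretches of Omt2a and Btg4 lie inside the GENCODE span of their own gene, not before it. Of the 6 genes, Omt2a (chr9:78314049-78314208, minus strand), Btg4 (chr9:51115841-51116000, plus strand), Khdc1b (chr1:21383396-21383555, plus strand) and C86187 (chr7:46975912-46976071, minus strand) were among the highest in embryos relative to cells. Hsd3b1 (chr3:98859795-98859954, minus strand) and Spp1 (chr5:104434951-104435110, plus strand) were among the highest in cells. Capitals mark CAGGTG or its reverse complement CACCTG, an E-box.
Omt2a: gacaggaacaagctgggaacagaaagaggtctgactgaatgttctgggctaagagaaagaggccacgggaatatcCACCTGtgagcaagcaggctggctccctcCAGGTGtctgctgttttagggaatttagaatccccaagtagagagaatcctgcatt
Btg4: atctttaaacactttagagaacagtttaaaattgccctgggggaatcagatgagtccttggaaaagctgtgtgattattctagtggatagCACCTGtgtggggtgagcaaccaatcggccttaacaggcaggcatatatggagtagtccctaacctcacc
Khdc1b: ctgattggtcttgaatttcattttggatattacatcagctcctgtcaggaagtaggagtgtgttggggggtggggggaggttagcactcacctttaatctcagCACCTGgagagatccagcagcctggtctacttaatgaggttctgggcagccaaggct
C86187: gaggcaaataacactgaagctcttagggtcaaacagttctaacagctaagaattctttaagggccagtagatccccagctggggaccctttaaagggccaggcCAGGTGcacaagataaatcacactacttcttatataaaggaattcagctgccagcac
Hsd3b1: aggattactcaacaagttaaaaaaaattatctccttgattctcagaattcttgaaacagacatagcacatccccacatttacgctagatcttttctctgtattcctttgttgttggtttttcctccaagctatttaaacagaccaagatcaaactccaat
Spp1: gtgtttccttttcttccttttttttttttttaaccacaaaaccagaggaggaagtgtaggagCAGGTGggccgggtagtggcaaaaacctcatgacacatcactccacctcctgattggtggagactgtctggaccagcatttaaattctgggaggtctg
RefSeq lists 2 start sites for Spp1, and the stretch shown belongs to the one that lies outside exons.

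In each direction the 15 largest ratios were taken among genes that reached 100 CPM where they were higher and were detected in 10 or more of the 12 cells (or 8 or more of the 9 embryos), predicted genes left out. Of the 15 towards embryos, 14 had an entry in the promoter table, and 10 of these held CAGGTG on either strand within 250 bases upstream of a start. They were Accsl, Btg4, C86187, Khdc1b, Omt2a, Oosp1, Tcl1, Tcl1b1, Tcl1b3 and Tcl1b4. Among the 15 towards cells, 13 had an entry and 3 held it, namely Cemip, Cyp11a1 and Spp1. Over all 32851 promoters in the table the share was 17.2%. That share is per promoter, while a gene counted if any of its listed promoters held the motif. A gene with more than 1 start thus had more chances, and the 2 kinds of share are not strictly alike. The 4 Tcl1 genes lie in a cluster on chromosome 12 and are related in sequence, so they are not separate instances. In all, 12 motifs were searched on both strands. GGGCGG stood in 7 of the 13 cell-high and 1 of the 14 embryo-high genes (32.7% of all promoters). CCAAT stood in 7 and 5 (33.8% of all promoters), and TATAAA in 3 and 4 (12.4% of all promoters). TTTGCAT and TAATCC each stood in 1 cell-high gene, against 4.12% and 6.25% of all promoters. The motifs AAGGTCA (4.08% of all promoters), CAAGGTCA, which contains it (1.33%), CACGTG (6.02%), TGACGTCA (1.55%), TGAGTCA (4.46%) and TGATTGAT (0.67%) were found in neither set. A match describes these letters in this window only.

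A total of 19252 genes had a count in some library: 13364 in both groups, 800 in cells alone and 5088 in embryos alone. Genes with a count in every library of a group numbered 913 for the 12 cells and 10639 for the 9 embryos, and 869 had a count in all 21 libraries. The ratio was described for the 11284 genes that reached 10 CPM in the summed cells or in the embryo mean, called measured below. Over these the median log2 ratio was -0.21.

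Embryo-high genes outnumbered cell-high genes. At a threshold of 8-fold, 1092 measured genes (9.68%) were higher in cumulus cells and 2040 (18.1%) were higher in embryos, so 34.9% of genes past the threshold were on the cell side. That share was 15.7% with Rn45s counted in the library size, 16.6% from the deposited FPKM values and 0.378% on counts per ERCC count. Other settings raised it. It was 39.2% with TMM factors, 42.6% with DESeq2 size factors, 42% with the mean of the 12 cells and 42% with all libraries thinned. At 2-fold the numbers were 3532 (31.3%) and 4250 (37.7%), and 3502 (31%) lay within 2-fold. Without cells 2 and 10, 1065 and 2161 genes passed 8-fold.

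**Figure D1:**
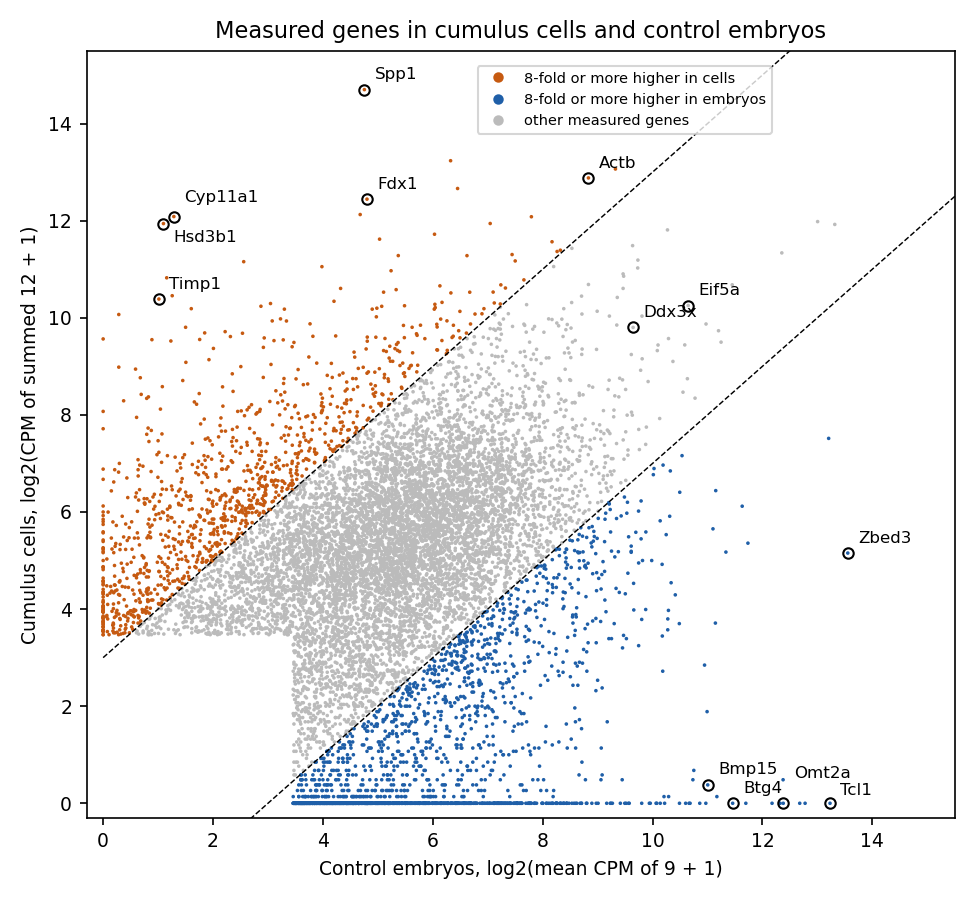
Level of each of the 11284 measured genes in control embryos (x axis, log2 of the mean CPM of 9 embryos plus 1) and in cumulus cells (y axis, log2 of the CPM of the 12 summed cells plus 1). Dashed lines mark 8-fold; the 1092 orange genes lie above the upper line, the 2040 blue genes below the lower, and genes without a count in cells, such as Tcl1, lie on the floor of the plot.

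Both sets held a large part of the RNA on their own side. The 1092 cell-high genes took 15.8% to 33.9% of the counts of single cells (median 32%) and 1.13% to 1.64% of those of embryos. The 2040 embryo-high genes took 33.3% to 38.6% of embryo counts (median 36.2%) and 0.671% to 2.77% of cell counts. In both cases the values chose the sets, and the lowest share of the first and the highest share of the second among cells were those of cell 2. The 1282 genes shared within 2-fold, by contrast, held similar parts of both, 10.6% to 18.9% in cells and 13.5% to 17.1% in embryos.

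**Figure D2:**
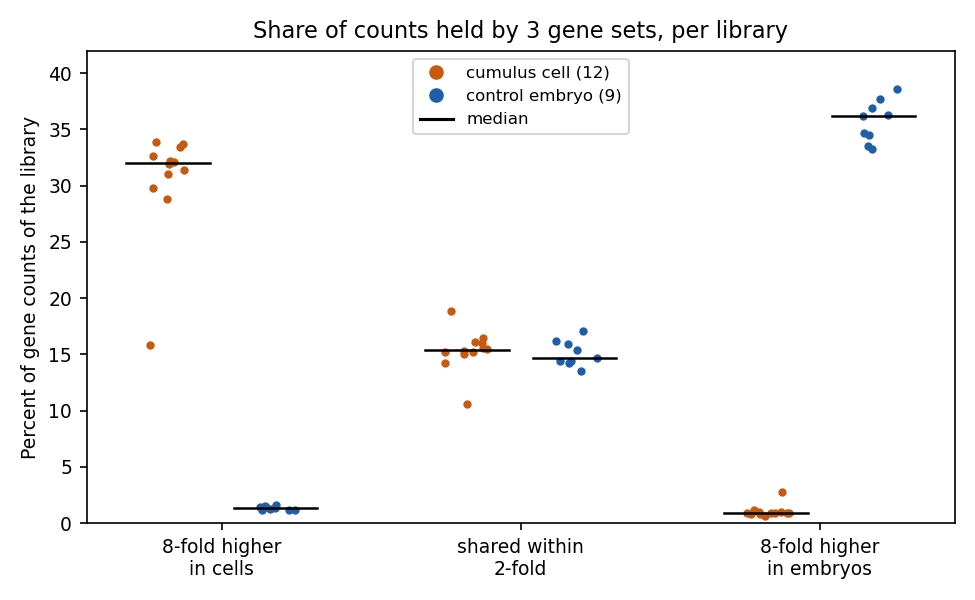
Percent of each library's gene counts held by the genes 8-fold higher in cells, shared within 2-fold, and 8-fold higher in embryos, for 12 cells (orange) and 9 embryos (blue), with medians as bars. Cells sit at 15.8% to 33.9% for the first set and embryos at 33.3% to 38.6% for the last, while the middle ranges overlap.

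How evenly a gene was found differed between the sides. Of the 1092 cell-high genes, 519 had a count in at least 10 cells, 111 in 3 cells or fewer and 30 in only 1 cell. In 200 of them the highest cell held more than 50% of the summed counts. All 12 cells lay above all 9 embryos for 114 of the 1092. Of the 2040 embryo-high genes, 2019 had a count in at least 8 embryos, and all 9 embryos lay above all 12 cells for 1548. Genes high in a few cells were thus part of the cell side, while embryo-high genes were found in nearly every embryo. Detection was lower in cells, with a median of 6861 genes against 14512 in embryos. A transcript missed in a cell breaks the separation of a cell-high gene but not that of an embryo-high gene. The part of detection in this contrast was not tested.

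Some features not used to choose the sets were compared. The median gene length was 2446 bases for cell-high, 2974 for embryo-high, 2818 for shared and 2974 for all measured genes. The share of X-linked genes among those with a chromosome was 4.93% of cell-high, 3% of embryo-high, 2.01% of shared and 3.13% of measured genes. Predicted gene models numbered 206 of the 2040 embryo-high and 42 of the 1092 cell-high genes. Their share over all measured genes was not computed, so these numbers are not read as a trait of either set.

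Hsd3b1 and Cyp11a1, enzymes of steroid production, had the largest ratios of the 15 towards cells. Cyp11a1 (chr9:58006411-58027023), the side-chain cleavage enzyme that makes pregnenolone from cholesterol, stood at 4343 CPM in the summed cells (interval 4302 to 4384). Single cells ranged from 0 to 8398 CPM with a median of 4186, and cell 5 was the cell at 0. Embryos held 1.44 ± 2.07 CPM (SD, n = 9), with no count in 5 of the 9, and the log2 ratio was 10.80. Hsd3b1 (chr3:98852194-98859794), which converts pregnenolone to progesterone, was at 3929 CPM in the sum, at 0, 1516 and 16054 CPM in the lowest, median and highest cell, and at 1.14 ± 1.51 CPM (SD, n = 9) in embryos. Its log2 ratio of 10.85 rested on 10 cells, since cells 4 and 8 had none, and cells 7 and 12 stood highest at 16054 and 15420 CPM. Fdx1, the ferredoxin that passes electrons to Cyp11a1, was found in all 12 cells at 543 to 8471 CPM (median 5190), against 26.9 ± 7.80 CPM (SD, n = 9) in embryos, and no cell overlapped the embryos.

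On the list of 22 steroid synthesis genes, 17 were measured, 10 were 8-fold higher in cells and none was so in embryos, with a median log2 ratio of 3.97 beside -0.21 over all measured genes. Past 8-fold in cells were 9.68% of all measured genes. Without cells 2 and 10, 11 of the list passed. Scarb1, the receptor that takes up cholesterol from lipoproteins, stood at 2485 CPM in the summed cells and 97.5 ± 37.3 CPM (SD, n = 9) in embryos. The list's transcription factor Nr5a1 is given with its class. Akr1c18, a hydroxysteroid dehydrogenase that inactivates progesterone, was at 2280 CPM in the sum, but at 0 in 4 cells and at 22851 CPM in cell 10. Its log2 ratio was 8.60, and 8.40 without cells 2 and 10. Cyp19a1, the aromatase that makes estrogen, was at 0 in every cell, and Cyp17a1, which makes androgen, had 0.0999 CPM from 1 cell; both were chosen for naming after their values were seen.

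Spp1 (chr5:104435118-104441050), the secreted phosphoprotein osteopontin, was at 26607 CPM in the summed cells (interval 26506 to 26708). The 12 cells held 1305, 22479 and 45485 CPM as lowest, median and highest, and cells 2 and 10 were the lowest of them. In embryos the level was 26.0 ± 20.5 CPM (SD, n = 9), and the log2 ratio was 9.95, or 9.99 without those cells. Scaled to gene length, Spp1 stood at 16048 CPM per kb of transcript in the summed cells, Cyp11a1 at 2448 and Hsd3b1 at 2118.

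The following genes are others of the 15 towards cells. Efemp1, a fibulin of the extracellular matrix, stood at 90.2 to 1947 CPM in all 12 cells (median 812) and had 4 counts over the embryos, all in 1 embryo. Timp1, an inhibitor of matrix metalloproteinases, was at 514 to 3028 CPM in all cells and at 1.02 ± 1.28 CPM (SD, n = 9) in embryos, with a log2 ratio of 9.37. Vcan, the proteoglycan versican of the cumulus matrix, was at 541 CPM in the sum and 1.84 ± 2.11 CPM (SD, n = 9) in embryos. Sfrp4, a secreted Wnt antagonist, had 1811 CPM in the sum and a log2 ratio of 9.67, with 0 in 2 cells and 7404 CPM in the highest. For Inha, the inhibin alpha subunit, the ratio was 7.92, for Mgst1, a membrane glutathione transferase, 9.20, for the intermediate filament gene Vim 7.80, and for the neuritin gene Nrn1 8.58. Timp1 lies within Syn1 on the opposite strand, and without strand the reads of such overlapping genes cannot be told apart.

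Lists of the follicle's somatic side also had more genes past 8-fold in cells than in embryos. Of 13 measured genes of cumulus expansion and matrix, 11 were 8-fold higher in cells and 1 in embryos. The median log2 ratio was 4.12 (4.33 with genes absent from a side at their bound). Several of the 11 rested on few cells. Adamts1 and Ereg had a count in 3 cells, Btc, Il6 and Ptx3 in 4 and Ptgs2 in 5. Vcan and Hspg2 had one in 11 and Tnfaip6 in 9. Has2 of the list was not measured, with 3.2 CPM from 1 cell, and Areg was at 0 in cells. For extracellular matrix and adhesion 13 of 24 were 8-fold higher in cells and 2 in embryos, for cytoskeleton and contractile genes 16 of 27 and 1. Over all measured genes 9.68% were 8-fold higher in cells and 18.1% in embryos. Gja1, the gap junction protein that couples cumulus cells, stood at 1295 CPM in the sum (lowest cell 19.7, median 1203, highest 2035) against 17.4 ± 14.8 CPM (SD, n = 9) in embryos. The 2 lowest cells for Gja1 were again cells 2 and 10, the ones within the embryo range.

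The ribosomal protein, nuclear oxidative phosphorylation, proteasome, glycolysis and cholesterol lists had positive median log2 ratios on CPM. These were smaller in size than the shift of -3.76 that counts per ERCC count give to the median log2 ratio of all measured genes. Their direction therefore holds only relative to the other genes. The same applies to the lists of cytoskeleton and contractile genes (median 3.71), cumulus and granulosa identity genes (3.09) and immediate early genes (2.16). The 12 measured mitochondrially encoded genes had a median of -0.82. Of these 5 were at least 2-fold higher in embryos and 1 in cells, beside 37.7% and 31.3% of all measured genes. Among 77 measured ribosomal protein genes 73 were at least 2-fold and 29 at least 8-fold higher in cells, with a median log2 ratio of 2.83. Of 76 genes of nuclear oxidative phosphorylation 57 were at least 2-fold and 12 at least 8-fold higher in cells, and of 37 proteasome genes 22 and 1. Glycolysis had 3 of 22 measured genes past 8-fold in cells and 2 in embryos, and cholesterol synthesis and uptake 7 of 29 and none. Over all measured genes 9.68% were past 8-fold and 31.3% past 2-fold in cells, so glycolysis was near that share at 8-fold and the proteasome list below it. Actb, at 7539 CPM in the sum and 455 ± 140 CPM (SD, n = 9) in embryos, changes side on counts per ERCC count, where its log2 ratio is -0.46. Among named genes past 8-fold, so do Gapdh, Aldoa, Rpl4, Hspg2 and Nr2f2.

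Of the 2040 embryo-high genes, 939 had no count in any cell. Tcl1 (chr12:105216750-105222793), an oocyte-expressed coactivator of the kinase Akt, stood at 5958 to 11882 CPM in the embryos, 9605 ± 1740 CPM (SD, n = 9). Over the 12 cells it had 0 of 10014230 counts, which allows up to 0.3 CPM at 3 counts over the group, so it was at least 32061-fold higher in embryos. Omt2a (chr9:78311972-78314796), an oocyte maturation gene, held 4286 to 6482 CPM in embryos, 5324 ± 600 CPM (SD, n = 9), and was at 0 in all cells, at least 17773-fold higher in embryos. No embryo came near any cell for either gene.

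Of the same 15 genes with the largest ratio towards embryos, 12 were at 0 in every cell. The noncoding RNA gene C86187 was at 7014 ± 1496 CPM, Khdc1b, an oocyte KH-domain gene, at 5119 ± 744 CPM and Oog3, an oogenesin, at 3320 ± 383 CPM (SD, n = 9 for each). The Tcl1 neighbours Tcl1b1, Tcl1b4 and Tcl1b3 were at 4622 ± 1118, 1553 ± 470 and 1437 ± 339 CPM (SD, n = 9 for each). They share sequence, so that counts between these copies may have been split, and the same holds for Omt2a and Omt2b. Btg4, an adaptor of the deadenylase that removes maternal messenger RNA at the egg-to-embryo transition, was at 1411 to 3948 CPM in embryos and at least 9388-fold higher there. It overlaps Layn and a microRNA pair on the opposite strand. Oosp1, Accsl and Spry4, an inhibitor of growth factor signalling, were at least 6194-fold, 5483-fold and 6691-fold higher in embryos.

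The other 3 of the 15 had a few counts in a single cell. Bmp15, the growth factor by which the oocyte acts on its cumulus cells, was at 2053 ± 330 CPM (SD, n = 9) in embryos, with 3 counts in the cells, all of them in cell 2. The ratio was 6870 with a counting interval of 2351 to 33317. Ratios with a counting interval, here and below, use counts summed over the 9 embryos and not the mean of their CPM. They thus differ slightly from a ratio to the embryo mean. Omt2b had 4 counts, all in cell 2, and 5313 ± 938 CPM (SD, n = 9) in embryos. Wee2, the oocyte kinase that holds meiotic arrest, had 1 count in the cells against 2304 ± 217 CPM (SD, n = 9), a ratio of 23297 (interval 4181 to 920191). Without cells 2 and 10, 11 of the 12 oocyte markers were at 0 in the cells, against 8 of 12 with them.

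Lists of egg and embryo genes lay mostly on the embryo side. All 11 measured oocyte markers were 8-fold higher in embryos, and the median log2 ratio of -7.44 was -8.22 with genes absent from cells at their bound. For the subcortical maternal complex, a protein assembly beneath the egg membrane needed for the first divisions, 10 of 11 were 8-fold higher in embryos, and the member Zbed3 stood at 12018 ± 2813 CPM (SD, n = 9) against 34.6 CPM in the summed cells. Of 18 measured regulators of oocyte mRNA 11 were past 8-fold in embryos, and of 22 pluripotency and preimplantation factors 16. Of 36 cell cycle and mitosis genes 25 were, with 1 past it in cells. Past 8-fold in embryos were 18.1% of all measured genes, and in cells 9.68%. Genes of the 2-cell stage had 11 of 12 past 8-fold in embryos, with a wide spread between embryos, as in Sp110 at 117 to 1566 CPM. Eif1a was the gene of that list at least 2-fold higher in cells, at 208 CPM in the sum against 51.7 ± 21.3 CPM (SD, n = 9), but its log2 ratio of 1.99 is -2.39 on counts per ERCC count.

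Genes found on 1 side only were very unequal in number. By a rule that asked for a count in 10 of 12 cells, 10 CPM in the sum and no count in any embryo, 2 genes (0.0177%) were on the cell side only. They were Epdr1, an ependymin-related gene, at 268 CPM in the sum, and Cemip, a gene of hyaluronan breakdown, at 209 CPM, both with 0 in 2 cells and highest cells of 590 and 643 CPM. They were at least 1671-fold and 1300-fold higher in cells. The mirror rule, with a count in 8 of 9 embryos, 10 CPM on average and none in any cell, gave 921 genes (8.16%). Allowing up to 1 CPM on the absent side gave 26 and 1271. The rules differ in reach, since 18674690 embryo counts and 10014230 cell counts set different floors, and without cells 2 and 10, with a count asked in 8 of the remaining cells, the numbers were 6 and 1186.

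Transcription factors leaned to the embryo side. Classes were assigned by gene symbol, which names families and not tested functions, and genes named within a class reached 20 CPM where they were higher and were detected in 8 or more cells (or 8 or more embryos). Of 622 measured transcription factors, 53 (8.52%) were 8-fold higher in cells and 147 (23.6%) in embryos, beside 9.68% and 18.1% of all measured genes. On the embryo side only were 63, beside 8.16% of all measured genes. The median log2 ratio of the 622 was -0.89.

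Nr5a1, the nuclear receptor that drives steroid enzyme genes, led the class on the cell side. It was present in all 12 cells within a narrow range, 52.5 to 173 CPM with a median of 105, and had 3 counts over the 9 embryos. The ratio was 724 with a counting interval of 247 to 3517. It overlaps its antisense gene Nr5a1os. Myc, a growth-promoting factor, was at 46 to 1635 CPM in all 12 cells against 10.1 ± 7.87 CPM (SD, n = 9) in embryos, and every cell lay above every embryo.

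Runx2, a Runt factor induced around ovulation, stood at 676 CPM in the sum and 9.85 ± 7.54 CPM (SD, n = 9) in embryos, with 0 in 1 cell. The AP-1 subunit gene Junb had a log2 ratio of 5.40, Nfia 5.31, and the zinc-finger genes Zfp266 and Zfp467 had 6.23 and 5.39, with Zfp266 at 0 in 2 cells and at 431 CPM in the highest. Both Runx2 and Junb overlap genes on the opposite strand. Of the 19 measured immediate early genes 17 were at least 2-fold higher in cells, 3 of them at least 8-fold. Another 2 were at least 8-fold higher in embryos. Over all measured genes 31.3% were past 2-fold and 9.68% past 8-fold in cells, and 18.1% past 8-fold in embryos. With 19 genes the 8-fold numbers do not stand apart from these shares.

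On the embryo side Obox5 and Klf17 had the largest ratios of the class. Obox5, a homeobox gene of oocyte and early embryo, was at 595 to 1590 CPM in embryos, 994 ± 363 CPM (SD, n = 9), and at least 3317-fold higher there. All 6 measured Obox genes were 8-fold higher in embryos, beside 18.1% of all measured genes. Obox1 at 230 ± 60.8 CPM shares its locus with Obox2 and pseudogenes, so its counts are uncertain. Klf17, a Krüppel-like factor of the early embryo, was at 732 ± 184 CPM (SD, n = 9) and Pou5f1, the pluripotency factor Oct4, at 330 ± 77.1 CPM (SD, n = 9), both with no count in any cell. They were at least 2445-fold and 1102-fold higher in embryos.

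Zfp57, which protects imprinted DNA methylation, was at 293 ± 66.4 CPM (SD, n = 9) with 2 counts in cells, a ratio of 1483 (interval 410 to 12249). Creb3l4, a membrane-bound bZIP factor, also had 2 counts, both in cell 2, against 249 ± 44.7 CPM (SD, n = 9). Glis3 and Mesp2, at 196 ± 45 and 182 ± 72.1 CPM (SD, n = 9 for each), were at 0 in all cells. Of 233 measured Zfp genes, 13 (5.58%) were 8-fold higher in cells and 37 (15.9%) in embryos, and 79 (33.9%) lay within 2-fold, beside 9.68%, 18.1% and 31% of all measured genes, so the last 2 shares were near those of all genes.

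Receptors were the class with the fewest genes at similar levels. Of 249 measured, 48 (19.3%) were 8-fold higher in cells and 59 (23.7%) in embryos, and 39 (15.7%) lay within 2-fold, beside 31% of all measured genes. Without cells 2 and 10, 45 and 69 of 246 passed 8-fold. A total of 32 receptors were on the embryo side only, beside 8.16% of all measured genes.

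Axl, a receptor tyrosine kinase that binds Gas6, headed the receptors in cells at 436 CPM in the sum, with 0, 293 and 1241 CPM as lowest, median and highest cell and 6.54 ± 6.19 CPM (SD, n = 9) in embryos. The cell at 0 was cell 10, and all others lay above the embryos. The cytokine receptor subunits Il10rb and Ifnar2 had log2 ratios of 5.16 and 5.17; they are neighbours on chromosome 16 and both overlap a read-through gene model on their own strand. Npr2, the receptor for the C-type natriuretic peptide by which cumulus cells hold the oocyte in arrest, was at 0 in 4 cells and at 161 CPM in the highest, with 5 counts over the embryos.

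Ramp1, which partners the calcitonin-like receptor, had a log2 ratio of 5.43, Ltbr, the lymphotoxin beta receptor, 4.97, and Smo, the Hedgehog signal transducer, 4.84. Cd44, the hyaluronan receptor, was found in 8 cells, with 34.8 CPM in the sum and 3 counts in embryos, a ratio of 216 (interval 73.4 to 1054). None of these 4 was present in all 12 cells, so their level was uneven between cells.

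Grm2 and Musk had the largest ratios among receptors of the embryo side. Grm2, a metabotropic glutamate receptor, was at 233 to 441 CPM in embryos and at least 1152-fold higher there, and Musk, the muscle kinase of the neuromuscular junction, at 197 to 406 CPM and at least 957-fold higher. Gpr3, which keeps cyclic AMP high in the oocyte and so maintains arrest, was at 94.2 ± 31.1 CPM (SD, n = 9) with no count in cells. The GDNF family receptors Gfra3 and Gfra1, at 63.5 ± 37.3 and 57.2 ± 22.5 CPM (SD, n = 9 for each), were also at 0 in cells. Gpr83 had no count in 1 embryo and 168 CPM in the highest, the widest relative spread of the 8. Gpr137b had 1 count in cells, a ratio of 923 (interval 166 to 36494), and the netrin receptor gene Unc5c had 9 counts in 2 cells.

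**Figure D3:**
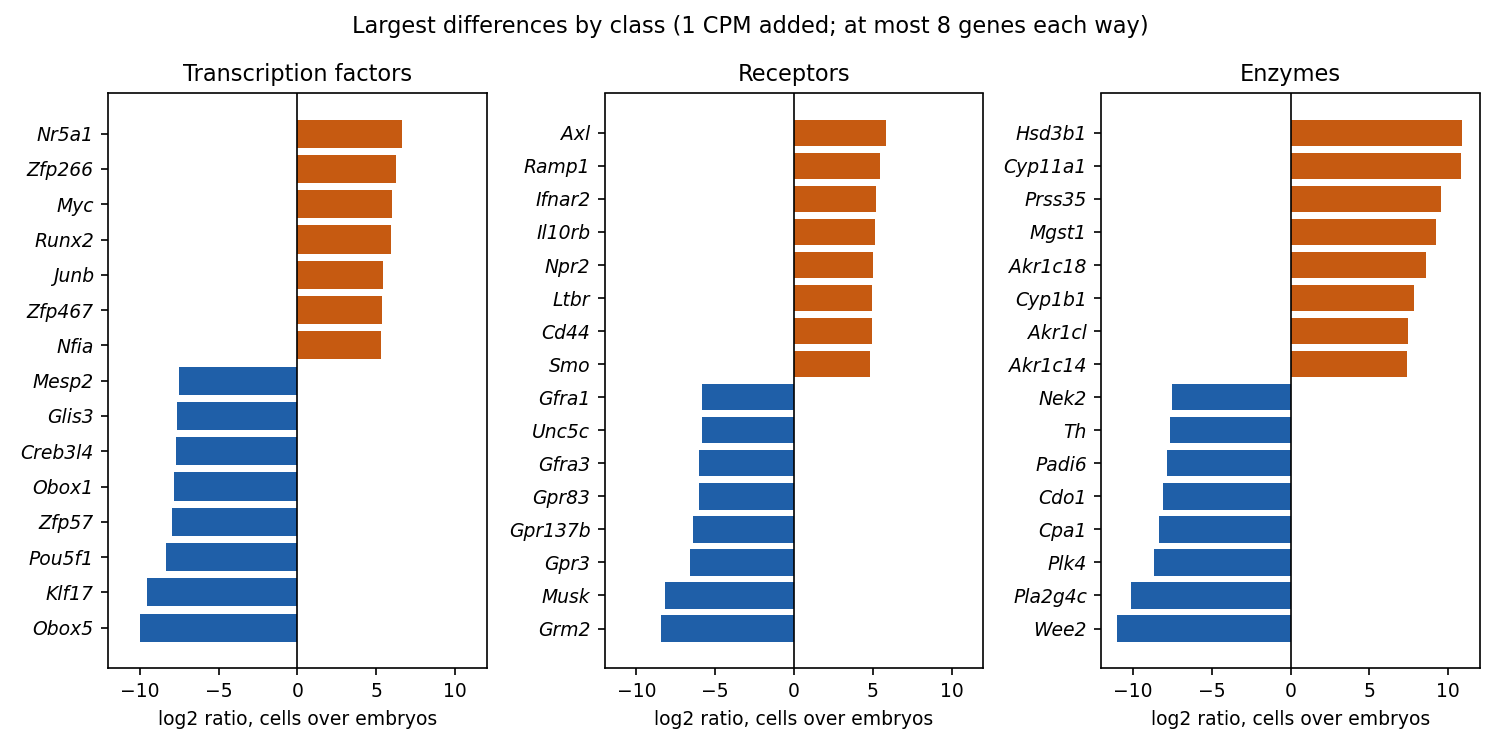
Log2 ratio of summed cells over the embryo mean (x axis, 1 CPM added) for at most 8 genes each way among transcription factors, receptors and enzymes. Orange bars are higher in cells and blue bars in embryos; bars of genes without a count on a side depend on the 1 CPM added and are no bounds, as for Obox5 and Pla2g4c.

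Enzymes came closest to the whole. Of 1339 measured, 163 (12.2%) were 8-fold higher in cells, 204 (15.2%) in embryos, and 402 (30%) lay within 2-fold, with a median log2 ratio of 0.03. Of these enzymes 77 were on the embryo side only, beside 8.16% of all measured genes.

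After Hsd3b1 and Cyp11a1, the enzymes with the largest ratio towards cells were Prss35, a trypsin-like protease family member, and Mgst1. Prss35 was at 756 CPM in the sum, with 0 in 3 cells and 1954 CPM in the highest, and had no count in embryos, at least 4708-fold higher in cells. Cyp1b1, a P450 of estrogen and xenobiotic oxidation, was at 824 CPM in the sum with 0 in 3 cells, against 2.60 ± 3.48 CPM (SD, n = 9). The aldo-keto reductase genes Akr1cl and Akr1c14 had log2 ratios of 7.45 and 7.36, but Akr1cl was found in all 12 cells (207 to 9027 CPM) and Akr1c14 in 8 (highest 2324 CPM). Reads of Akr1c genes may be shared between copies. Of 12 measured Cyp genes, 5 (41.7%) were 8-fold higher in cells and 4 (33.3%) in embryos, beside 9.68% and 18.1% of all measured genes. Of 18 glutathione transferase genes 4 (22.2%) and 3 (16.7%) were, the latter near the share of all genes.

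Wee2 led the enzymes of the embryo side, and Pla2g4c, a phospholipase A2, was next at 1127 ± 259 CPM (SD, n = 9) and at least 3762-fold higher. The centriole kinase gene Plk4, at 409 ± 71.9 CPM, and the mitotic kinase gene Nek2, at 185 ± 80.2 CPM (SD, n = 9 for each), were at 0 in cells. So was Padi6, a deiminase of the egg's subcortical maternal complex, at 232 ± 36.7 CPM (SD, n = 9). Genes known from other tissues were in this group too: Cpa1, a pancreatic carboxypeptidase, at 210 to 446 CPM and Th, the tyrosine hydroxylase of catecholamine synthesis, at 125 to 251 CPM in embryos, both at 0 in cells. Cdo1, the cysteine dioxygenase, had 5 counts in 1 cell and ranged from 117 to 630 CPM in embryos. Of 77 measured genes of ubiquitin proteases and conjugating enzymes, 16 (20.8%) were 8-fold higher in embryos and 1 (1.3%) in cells, beside 18.1% and 9.68% of all measured genes, so the embryo share was near that of all genes.

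**Figure D4:**
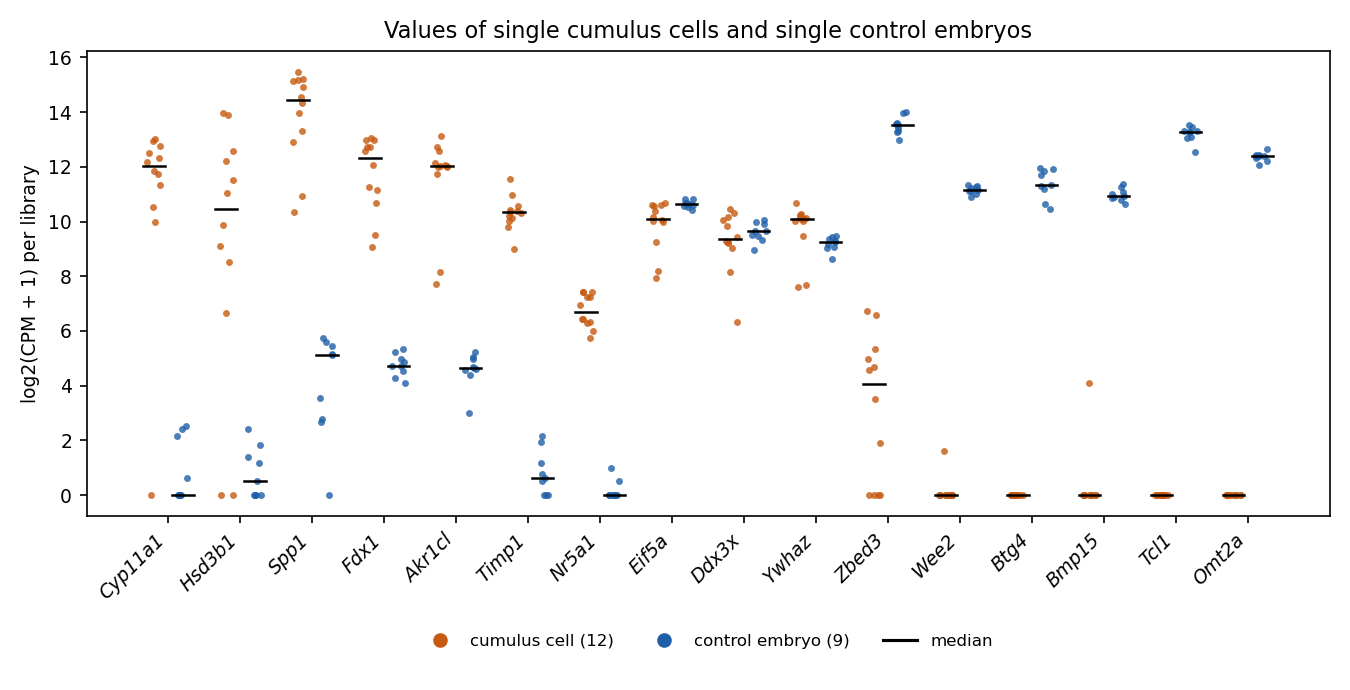
Log2(CPM + 1) of 16 genes in each of 12 cumulus cells (orange) and 9 control embryos (blue), with medians as bars. Cells of Fdx1, Timp1 and Nr5a1 all lie above the embryos, Cyp11a1 and Hsd3b1 reach 0 in 1 and 2 cells, cells and embryos overlap for Eif5a, Ddx3x and Ywhaz, and the genes from Zbed3 on lie above every cell in embryos.

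Shared genes were those with a count in 10 of 12 cells and 8 of 9 embryos, 10 CPM on both sides and a ratio under 2-fold. They numbered 1282 (11.4%), out of 3228 measured genes that met the detection part. Without cells 2 and 10, and with detection asked in 8 of the remaining cells, they numbered 1887, so that number reflects both changes. The values chose these genes, and no test of equality was run. Below are the 12 with the highest level on their lower side, ribosomal protein, mitochondrially encoded and predicted genes left out.

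Eif5a, an elongation and initiation factor, was at 1219 CPM in the sum (lowest cell 242, median 1103, highest 1626) and 1604 ± 145 CPM (SD, n = 9) in embryos, a log2 ratio of -0.40. For Eif5a 8 cells still lay below every embryo. Ddx3x, an RNA helicase, had a ratio of 0.15, Mt1, a metallothionein, 0.23, Bzw1 0.37 and Hspa5, the chaperone BiP, 0.50. The adaptor gene Ywhaz was at 1048 CPM in the sum and 593 ± 96.4 CPM (SD, n = 9), with 10 cells above every embryo. Eif1, Eif5 and Eif4g2, all translation factors, had ratios of -0.66, -0.37 and -0.72, and Skp1a, a ubiquitin ligase subunit, Ptp4a2 and Anp32b had -0.76, -0.86 and -0.65. Hspa5 went from 72.2 to 2429 CPM in cells and from 301 to 1236 CPM in embryos. Ddx3x, Mt1, Bzw1, Hspa5 and Ywhaz change side when Rn45s is counted in the library size, in the FPKM values and on counts per ERCC count, where none of the 1282 remained within 2-fold.

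Markers of other cell types were checked in the same way. Theca and stroma markers summed to 35 CPM over the summed cells (0.768 to 446 CPM per cell) and to 10.3 ± 6.29 CPM (SD, n = 9) in embryos, with Insl3, Col1a1, Col3a1, Dcn and Lum at 0 in cells. The highest cell was cell 2, which held Nr2f2 at 382 CPM. Immune markers summed to 47.1 CPM (0 to 1352 CPM per cell), and cell 2 held Lyz2 at 801 and Cd68 at 212 CPM; without cells 2 and 10 the sum was 22.4 CPM. Lyz2 was the named gene that changed side without them, from a log2 ratio of 0.95 to -2.50. Endothelial markers summed to 68.0 CPM and erythroid markers to 3.20 CPM, with the 4 globin genes at 0 in cells. Epithelial markers summed to 216 CPM in cells, mostly Krt18 with 1498 CPM in cell 5, and to 365 ± 171 CPM (SD, n = 9) in embryos. Of the 16 cumulus and granulosa identity genes 12 were measured, and 6 were 8-fold higher in cells and none in embryos. Over all measured genes the shares were 9.68% and 18.1%. Wt1, Amh and Kitl of that list, named after their values were seen, had a count in 2 cells or fewer. The part of other cell types in any ratio was not tested.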

How the data were processed

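RNA was sequenced from single cells and single embryos with the Smart-seq2 protocol, which keeps neither strand nor molecular identifiers. The authors deposited whole-number counts per gene (24540 rows, of which 92 were ERCC spike-in RNAs) and FPKM values for the same rows. FastQC, STAR 2.7.3a, R 4.0.2 and the mm10 build are named in the submitters' processing notes, and the sources used here do not give the counter, the annotation or its strand setting. The deposited FPKM equalled the count divided by gene length and by the total of all rows other than ERCC (tolerance 1e-09, 17600 genes). All 37 Ensembl identifiers were matched to mitochondrial symbols.

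Library sizes left out ERCC rows and Rn45s. The design allowed no test, and the labels give no batch or date. Positions are those of GENCODE M21 (GRCm38), matched by symbol for 23371 of 24447 gene rows, and promoters those of RefSeq. Alternatives used TMM factors (edgeR 4.0.16), DESeq2 1.42.0 size factors, other pseudocounts and filters, ERCC scaling, FPKM, thinning and leaving out libraries.

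The genes named are 5 markers, the 15 largest ratios each way at 100 CPM or more with a count in 10 of 12 cells or 8 of 9 embryos, the 8 largest each way per class at 20 CPM or more with a count in 8 of 12 cells or 8 of 9 embryos, the most abundant genes found on 1 side only (at most 8), the 12 shared genes with the highest level on their lower side (ribosomal protein and mitochondrially encoded genes left out), and, from each list, the 2 members with the highest level; predicted genes were left out. Some of the genes so chosen are not reported here. Genes and lists were chosen with earlier results of these data known. A fold against a group at 0 is a lower bound at 3 counts over that group. The code was checked on simulated counts in which all cells shared the same profile. That check did not cover spread between cells or a difference in total RNA. Python 3.11.15 with pandas 2.3.3 was used.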

Additional observations from a re-analysis of the deposited data

Results flagged for a closer look

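A sample far from the other 8 embryos, by a gap test that chance passes in about 1 in 20 groups, was found in 8 of 81 genes and 1 of 14 library measures. Embryo 3 was the lowest for Tcl1 at 5958 CPM, C86187 at 3898 CPM, Anp32b at 226 CPM, Ywhaz at 396 CPM and Akr1cl at 6.94 CPM. Embryo 7 was the lowest for Pecam1 at 25.2 CPM, and embryo 2 for Psma7 at 25 CPM. Embryo 5 was the highest for Scarb1 at 189 CPM. Embryo 9 held the most Rn45s counts, 1128073. The single cells, 12 in number, were not put to this test.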

How the results depend on the processing

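With Rn45s counted in the library size, 467 genes were 8-fold higher in cells in place of 1092. On counts per ERCC count there were 29, with 7642 higher in embryos, 121 shared and 1 on the cell side only. The log2 ratio then changed sign for Actb (-0.46), Aldoa (-1.39), Gapdh (-0.80), Hspg2 (-0.26), Nr2f2 (-0.44) and Rpl4 (-1.40). This scaling moved the median ratio of measured genes by -3.76, Rn45s by -0.89, FPKM by -0.80, TMM by 0.17 and DESeq2 size factors by 0.30. A pseudocount of 5 CPM gave 594 and 1023 genes past 8-fold. A filter of 1 CPM gave 1626 genes on the embryo side only, and one of 100 CPM gave 471, 659, 404 and 166 for cell-high, embryo-high, shared and embryo side only. The FPKM values gave 312 cell-high genes and 480 on the embryo side only. Thinning gave 12 genes on the cell side only, and leaving out cells 2 and 10 gave 6. Where libraries were left out, the number of libraries that had to hold a count was lowered by as many. Genes detected per embryo had a median of 12426 at a minimum of 5 counts and 11008 when thinned. Leaving out 1 library at a time gave 1060 to 1139 cell-high, 2017 to 2163 embryo-high and 1256 to 1601 shared genes. It gave 2 to 4 genes on the cell side only, with 4 without cell 4, 9 or 10, and 911 to 1170 on the embryo side only. The causes were not tested. Whether the same ERCC amount went into every library is not given in the sources used here. No paired analysis was possible because the comparison comes from no test: the 12 cells count as 1 sample. Depth limits the cell side most, at 0.3 CPM for 3 counts over all cells.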
